A study of Mus musculus with 8 samples.

Results

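The genes described here encode the chaperones, folding enzymes and degradation factors of the endoplasmic reticulum (ER), with the sensors that adjust them. They are the 37 Ensembl genes whose symbols match a list of ER chaperone and unfolded protein response genes, out of 55558 gene features in the deposited count table. All 37 were found once each, and all 37 passed the filter on low counts, as did 20405 gene features in all. Total RNA was read in 3 libraries from mK4, labelled as epithelial-differentiated metanephric mesenchymal cells of the mouse kidney, and in 3 from mK3, labelled as uninduced metanephric mesenchymal cells. Each line also has 1 ATAC-seq library, which maps DNA open to a cutting transposase. Both lines are given as genotype wt, untreated, and grown in the same DMEM medium with 10% fetal bovine serum, so no agent that causes ER stress was applied to either. Each line is a single cell line, and the labels do not say whether its libraries came from separate cultures. The spread behind the p-values may therefore be technical.

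Secreted and membrane proteins enter the ER through the Sec61 channel, fold there with the help of chaperones, sugar-binding lectins and disulfide isomerases, and are sent back to the cytosol for destruction when folding fails. When unfolded proteins build up, the sensors IRE1, ATF6 and PERK are released from the chaperone BiP. IRE1 splices the Xbp1 message, ATF6 is cut free by a pair of Golgi proteases, and PERK phosphorylates the initiation factor eIF2 alpha, which slows translation and favours that of the factor ATF4. XBP1 and ATF6 then raise many of the genes described here. These steps act on proteins and on splicing, so gene counts show the level of the messages and not the state of the sensors.

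Library totals were 137559391 to 152952351 counts. Values below are CPM, read counts scaled to the library's total over tested genes and then by a TMM factor of 0.928 to 1.06. They compare a gene between lines and not different genes with each other. The marker sums in this paragraph are the exception. They are scaled to the library's total over all Ensembl gene features, without the TMM factor. The labelled identities were only partly borne out by markers. Of 10 nephron progenitor genes, Six2 and Hoxd11 were at 0 in every mK4 library, and Pax2, Sall1, Wt1, Meox1 and Hoxd11 were at 0 in every mK3 library. Their sum was 215 to 289 CPM in mK4 and 33.5 to 35.7 CPM in mK3. Eya1 had 21768, 27327 and 33101 counts in mK4 and 1404, 1463 and 1184 in mK3. Osr1, Gdnf and Six2 went the other way, with Osr1 at 271, 370 and 351 counts in mK4 and 1519, 1458 and 1501 in mK3. Among 8 epithelial genes, Epcam, Krt18, Cldn3 and Cldn4 were at 0 in mK4, while Cdh16 had 11343 to 13372 counts in mK4 and 0 in mK3. Krt19 went the other way, with 0 to 26 counts in mK4 and 92 to 216 in mK3, and Epcam had 90 counts in mK3 replicate 3. Summed over 7 stromal genes, which include the collagens Col1a1, Col1a2 and Col3a1, the level was 70.6 to 76.6 CPM in mK4 and 2681 to 3402 CPM in mK3. Foxd1 in that list went against the sum, with 726, 766 and 627 counts in mK4 and 372, 357 and 299 in mK3. Over 6 plasma cell genes, markers of cells with a large ER, it was 28.9 to 32.0 CPM in mK4 and 30.8 to 36.3 CPM in mK3, with Jchain and Mzb1 at no more than 18 counts in any library. Most of that sum was Sdc1, and Prdm1 had 859, 1032 and 452 counts in mK4 and 41, 0 and 0 in mK3. The part that these cell identities play in the results below was not tested, and in bulk RNA fewer cells of a kind and less RNA per cell cannot be told apart.

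The 37 genes did not move in one direction. In mK4 against mK3, 8 were higher (21.6%), 9 were lower (24.3%) and 20 were not called, where a call is an adjusted p under 0.05 in edgeR's quasi-likelihood test, by Benjamini-Hochberg over all tested genes. The called share, 45.9%, is near the 40.3% of all tested genes that were called, of which 20.8% were higher and 19.5% lower. Among the 9738 protein-coding genes with a mean of at least 5 CPM, a level that all members but Derl3 reached, 53.9% were called, 26.1% higher and 27.8% lower. A gene that was not called is not shown to be at the same level in both lines. The median log2 fold change of the 37 genes was 0.05, beside 0.02 over all tested genes. Libraries of the lines did not overlap for 25 members (67.6%), beside 56.1% of all tested genes.

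Most differences were small. Only Pdia5, Derl1 and Dnajb9 were called with a change of at least 2-fold, which is 8.11% of the members, beside 22.2% of the same protein-coding genes. The lower calls were also steadier than the higher ones. Of the 9 lower genes, 8 passed in all 12 alternative fits, and Ssr1 failed only when library scaling was left out. Among the 8 higher genes only Pdia4 passed in all 12. The count of higher genes was 5 with the size factors of DESeq2 (5 higher and 9 lower), 2 with the replicate number as a block, and 1 without mK4 replicate 1 or without mK4 replicate 2, against 9, 9 and 9 lower genes in those last 3 fits. Higher genes numbered 9 where every library had to reach 1 CPM, and 10 with DESeq2 or without library scaling. Summed over the members, the level was 5864, 5908 and 5622 CPM in the mK4 libraries and 6251, 6216 and 6478 CPM in the mK3 libraries. As a share of gene counts, before the TMM factors, the members took 0.596, 0.615 and 0.593% in mK4 and 0.633, 0.591 and 0.601% in mK3, which overlapped. Without P4hb, which alone gave 848 to 943 CPM in mK4 and 1225 to 1312 CPM in mK3, the sums were 4979.6, 5060.1 and 4678 CPM in mK4 and 5026, 4931 and 5166 CPM in mK3, and overlapped.

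**Figure D1:**
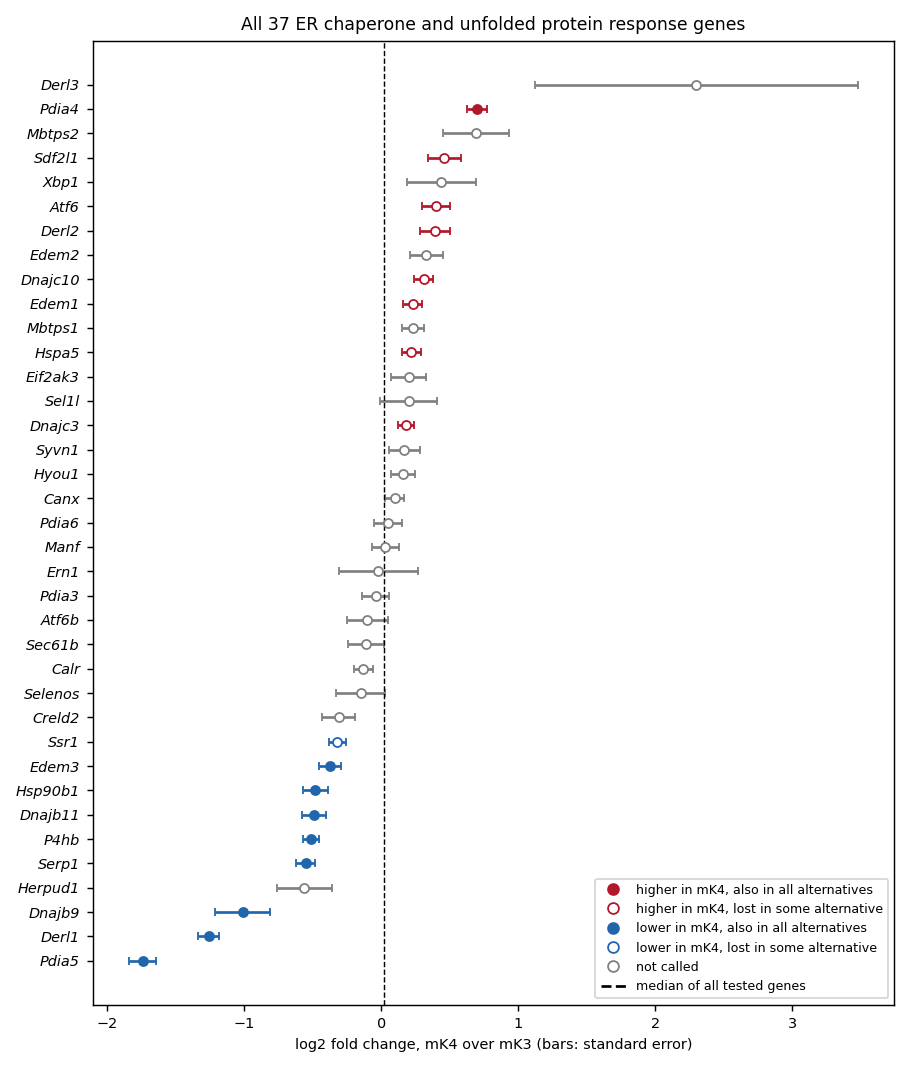
Log2 fold change of mK4 over mK3 (x axis) with its standard error for each of the 37 genes, fitted over 3 libraries per line, sorted from the highest at the top. Filled points passed in the main test and in all 12 alternatives, coloured open points passed in the main test only in part of them, grey points were not called, and the dashed line is the median of all tested genes (0.02). Pdia5 (-1.74) and Derl1 (-1.26) lie farthest to the left, and Pdia4 (0.70) is the only filled point on the right.

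The major lumenal chaperones split. Hsp90b1 encodes GRP94, the ER form of Hsp90. It had 245, 256 and 218 CPM in the mK4 libraries and 355, 335 and 312 CPM in the mK3 libraries. All mK4 libraries lay below all mK3 libraries, and the gene fell by 0.48 on the log2 scale (SE 0.09, adjusted p = 0.00544). Hspa5 encodes BiP, the ER Hsp70 that binds the stress sensors, and is the standard readout of the response. Its level was 140.2, 142 and 139 CPM in mK4 and 113, 119.9 and 128 CPM in mK3. It was 1.16-fold higher (log2 fold change 0.22, SE 0.07, adjusted p = 0.0452), and this call held in 4 of 12 alternatives (adjusted p 0.00579 to 0.116). Hyou1, an exchange factor that helps BiP release its nucleotide, stood at 52.7 ± 1.80 CPM in mK4 and 47.1 ± 4.26 CPM in mK3 (SD, n = 3 each) and was not called (adjusted p = 0.214).

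BiP works with J proteins, which hand it substrates and switch on its ATPase, and these also split. Dnajb9, also called ERdj4, is a J protein that returns BiP to IRE1 and is a known XBP1 target in mouse fibroblasts. It had 5.00, 6.07 and 4.36 CPM in mK4, against 8.53, 11.5 and 11.2 CPM in mK3. The libraries did not overlap, and the level in mK4 was 0.495 times that in mK3 (log2 fold change -1.01, SE 0.20, adjusted p = 0.00802). Dnajb11, or ERdj3, a secreted J protein that binds unfolded chains directly, was also lower, with 56.2, 51.3 and 56.2 CPM in mK4 and 76.8, 70.1 and 82.6 CPM in mK3 (log2 fold change -0.49, SE 0.09, adjusted p = 0.0064). In the other direction, Dnajc10, or ERdj5, a J protein with reductase activity that opens disulfides before degradation, had 669, 690.1 and 593 CPM in mK4 and 501, 528 and 547 CPM in mK3. Its libraries did not overlap, and its adjusted p of 0.0185 was kept under 0.05 in 8 of 12 alternatives (0.00321 to 0.0654). Dnajc3, or p58IPK, which also restrains PERK, had 259, 252 and 241 CPM in mK4 and 215, 223 and 225 CPM in mK3, again without overlap. It was 1.13-fold higher (adjusted p = 0.045), a call kept in 3 of 12 alternatives (0.00627 to 0.138).

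The disulfide isomerases held both the largest fall and the firmest rise among the members. Pdia5, a less studied isomerase that in human cells acts on the disulfides of ATF6, had 54.7, 58.1 and 59.4 CPM in the mK4 libraries. The mK3 libraries had 218, 176 and 181 CPM. The gap between the lines was far wider than the spread within either, and the mK4 level was 0.299 times the mK3 level (log2 fold change -1.74, SE 0.10, adjusted p = 7.4e-05). Pdia4, or ERp72, a classical target of the response with several thioredoxin domains, had 262, 261 and 247 CPM in mK4, against 150.3, 168 and 155 CPM in mK3. Every mK4 library was above every mK3 library, and the gene was 1.62-fold higher (log2 fold change 0.70, SE 0.07, adjusted p = 0.000472).

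P4hb encodes protein disulfide isomerase itself, which also serves as the beta subunit of the collagen prolyl 4-hydroxylase. It had 884, 848 and 943 CPM in mK4 and 1225, 1285 and 1312 CPM in mK3, with no overlap, and fell by 0.51 on the log2 scale (SE 0.06, adjusted p = 0.00101). The collagens Col1a1, Col1a2 and Col3a1 also had fewer counts in each mK4 library than in any mK3 library, and their part in this difference was not tested. Pdia3, or ERp57, the isomerase that works with the lectin chaperones, stood at 297 ± 23.0 CPM in mK4 and 305 ± 33.5 CPM in mK3 (adjusted p = 0.788). Pdia6 stood at 129 ± 7.10 and 124 ± 13.0 CPM in mK4 and mK3 (adjusted p = 0.715). The lectin chaperones that hold sugar-bearing chains for Pdia3 were not called either. Calr, which encodes calreticulin, had 203 ± 2.13 CPM in mK4 and 223 ± 14.5 CPM in mK3 (adjusted p = 0.171, and 0.0447 without mK3 replicate 1), and Canx, which encodes calnexin, had 541 ± 32.5 CPM in mK4 and 505 ± 20.9 CPM in mK3 (adjusted p = 0.285).

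**Figure D2:**
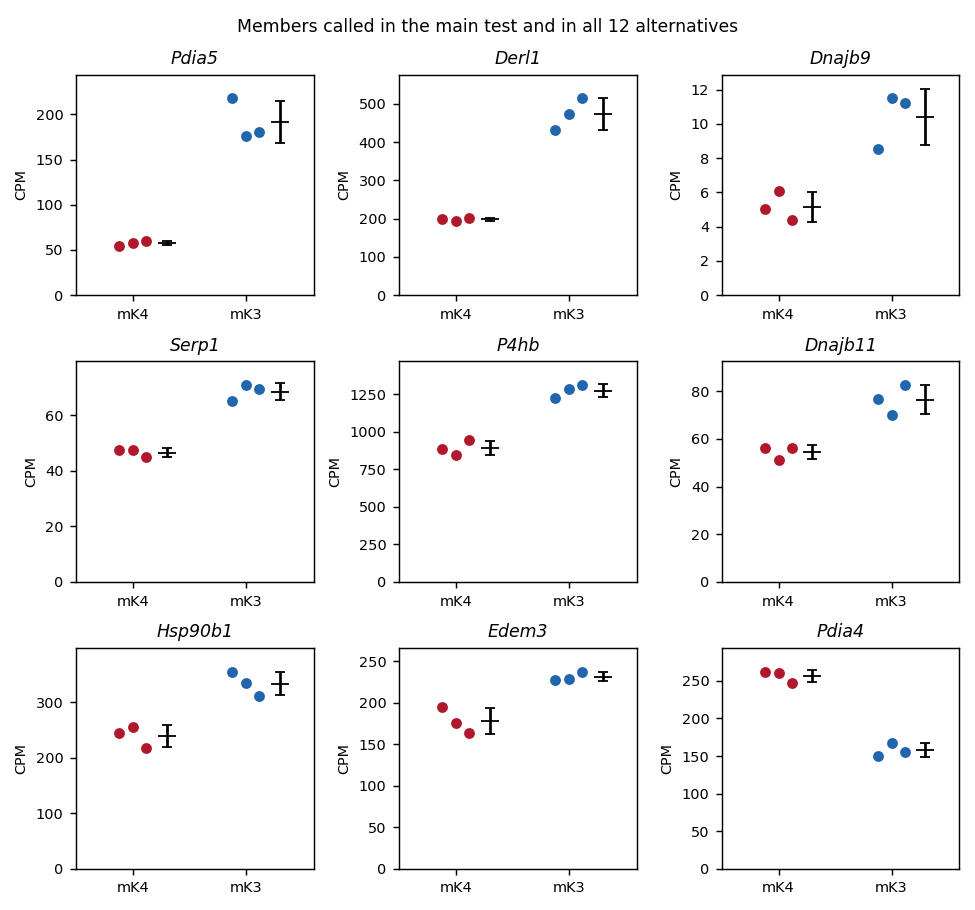
CPM in each library (points) with the mean and SD beside them (black bar), mK4 in red and mK3 in blue, for the 9 genes called in the main test and in all 12 alternatives, each panel starting at 0. In 8 panels the mK4 libraries sit below the mK3 libraries, and in the Pdia4 panel they sit above.

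Small lumenal proteins that respond strongly to ER stress showed no common shift. Sdf2l1, a partner of the J proteins, had 13.1, 12.6 and 14.6 CPM in mK4 and 9.03, 10.0 and 10.2 CPM in mK3, and was 1.38-fold higher (adjusted p = 0.027, kept in 6 of 12 alternatives, 0.00257 to 0.0799). Creld2, a folding factor with isomerase activity, stood at 38.1 ± 4.77 CPM in mK4 and 47.2 ± 3.96 CPM in mK3 and was not called (adjusted p = 0.0917), although it passed with DESeq2 (adjusted p = 0.0414). Manf, a secreted stress protein that binds BiP, stood at 134 ± 10.0 CPM in mK4 and 131 ± 12.2 CPM in mK3 (adjusted p = 0.815).

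Because BiP, GRP94 and many of their partners share a promoter element through which ATF6 and XBP1 act, the promoter sequences are shown beside these values. The ER stress response element was searched as CCAAT, 9 bases of any kind and CCACG, and its second form as ATTGG, 1 base of any kind and CCACG, on both strands, from 250 bases before to 50 bases after each start in the RefSeq promoter table (GRCm38.p6). A start was listed for 33 members, and Hyou1, Manf, Derl1 and Atf6 had none. The full element was found in 9 of these 33, beside 0.119% of the 32851 promoters in the table. Hsp90b1 held 2 copies. The elements follow, read 5′ to 3′ on the strand that carries the CCAAT box, with the fixed letters in capitals and the spacer in lower case.
Hspa5, chr2:34772025-34772043, plus strand: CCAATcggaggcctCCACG
Hsp90b1, chr10:86705638-86705656, minus strand: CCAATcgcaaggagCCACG
Hsp90b1, chr10:86705533-86705551, plus strand: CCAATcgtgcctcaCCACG
Dnajc3, chr14:118937827-118937845, plus strand: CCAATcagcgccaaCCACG
Pdia6, chr12:17266491-17266509, plus strand: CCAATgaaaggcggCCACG
Calr, chr8:84847075-84847093, plus strand: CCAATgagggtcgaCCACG
Canx, chr11:50325800-50325818, minus strand: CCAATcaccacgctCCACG
Creld2, chr15:88819520-88819538, minus strand: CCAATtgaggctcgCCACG
Syvn1, chr19:6046532-6046550, plus strand: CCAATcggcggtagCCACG
Derl3, chr10:75893242-75893260, minus strand: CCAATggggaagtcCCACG
The second form was found in 2 members, beside 0.0365% of all promoters. Neither the unfolded protein response element TGACGTGG, present in 0.676% of all promoters, nor the amino acid and stress response element TGATGNAAT, present in 0.965%, was found in these windows. A match is only a description of the letters. The motifs were searched as known elements of ATF6, XBP1 and ATF4 targets. A higher share among the members was therefore to be foreseen, and no test was run on it.
Dnajb11, chr16:22857852-22857862, plus strand: ATTGGcCCACG
Herpud1, chr8:94386377-94386387, plus strand: ATTGGgCCACG

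Genes with the full element did not share a direction. Hspa5 and Dnajc3 were called higher, Hsp90b1 was called lower, and Pdia6, Calr, Canx, Creld2, Syvn1 and Derl3 were not called. Of the genes with the second form, Dnajb11 was called lower, and Herpud1 was not called. Pdia4 and Pdia5, which differed most among the isomerases, held no full copy of any of the 4 motifs in the 300 bases searched. The 250 bases upstream of the start are shown for the contrasting chaperones, with the fixed letters of each element in capitals, and for these isomerases.
Hspa5, chr2:34771840-34772089, plus strand: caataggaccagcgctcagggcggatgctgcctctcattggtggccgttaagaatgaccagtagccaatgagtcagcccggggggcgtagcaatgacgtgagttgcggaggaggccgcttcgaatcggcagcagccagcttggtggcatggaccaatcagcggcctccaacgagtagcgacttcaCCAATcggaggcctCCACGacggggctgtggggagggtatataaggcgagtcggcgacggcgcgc
Hsp90b1, chr10:86705445-86705694, minus strand: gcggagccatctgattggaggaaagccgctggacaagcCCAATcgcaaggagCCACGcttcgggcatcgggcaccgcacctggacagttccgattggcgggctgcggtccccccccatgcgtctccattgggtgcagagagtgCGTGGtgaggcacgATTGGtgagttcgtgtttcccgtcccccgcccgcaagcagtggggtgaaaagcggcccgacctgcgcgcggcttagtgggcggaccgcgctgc
Pdia4, chr6:47813513-47813762, minus strand: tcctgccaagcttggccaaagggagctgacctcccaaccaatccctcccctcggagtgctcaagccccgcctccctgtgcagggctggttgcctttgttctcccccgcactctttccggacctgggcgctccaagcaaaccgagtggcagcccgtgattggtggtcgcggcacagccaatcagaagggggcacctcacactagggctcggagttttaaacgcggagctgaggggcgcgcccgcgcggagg
Pdia5, chr16:35490874-35491123, minus strand: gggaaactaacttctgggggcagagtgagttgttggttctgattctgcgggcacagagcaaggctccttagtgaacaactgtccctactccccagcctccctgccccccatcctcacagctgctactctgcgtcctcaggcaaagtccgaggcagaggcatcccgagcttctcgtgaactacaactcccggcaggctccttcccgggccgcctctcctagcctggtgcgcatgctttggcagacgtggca

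Chromatin at these starts was listed as open in both lines for nearly all members. A peak lay within 1000 bases of the start for 33 of 33 members in mK4 and 31 of 33 in mK3. Of the 11904 tested genes with a listed start, 69.8% had one in mK4 and 63.6% in mK3. In both lines 31 members had one, beside 59.2% of those genes. That background was not limited to protein-coding genes with at least 5 CPM, so the gap is not shown to be a trait of the members. At the Hspa5 start the deposited peak covered chr2:34771623-34772291 in mK4 and chr2:34771530-34772207 in mK3, both of which include its element. The Hsp90b1 peaks, chr10:86705323-86706420 in mK4 and chr10:86705329-86706453 in mK3, include both copies. Pdia5, although much lower in mK4, had a peak over its start in mK4 (chr16:35490183-35491074) and in mK3 (chr16:35490507-35491104). The same held for Pdia4, with chr6:47813230-47813850 in mK4 and chr6:47813050-47813815 in mK3. With 1 ATAC library per line the peaks carry no replicate error, and peak presence was the only measure compared at the starts.

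The members without a start peak in mK3 were Derl3 and Mbtps2. For Derl3 the mK4 peak was chr10:75893106-75893446, with a deposited -log10 q of 17.7, and for Mbtps2 it was chrX:157598119-157599015, with 5.89. No mK3 peak lay within 5000 bases of either start. The mK4 list is longer, at 34756 peaks against 22516 in mK3, and the part of list length in this difference was not tested. The whole span of Atf6, 164129 bases on chromosome 1, held 8 peaks in mK4 and 2 in mK3. This was the longest span and the widest gap in peak number among the members, so it does not stand for the others. Most members had equal numbers in both lines. Dnajb9, Dnajc3 and Pdia6 had 2 in mK4 and 1 in mK3, and Derl3 and Mbtps2 had 1 and 0. Edem3 and Herpud1 went the other way, with 1 in mK4 and 2 in mK3. A link between these peaks and the Atf6 level was not tested.

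**Figure D3:**
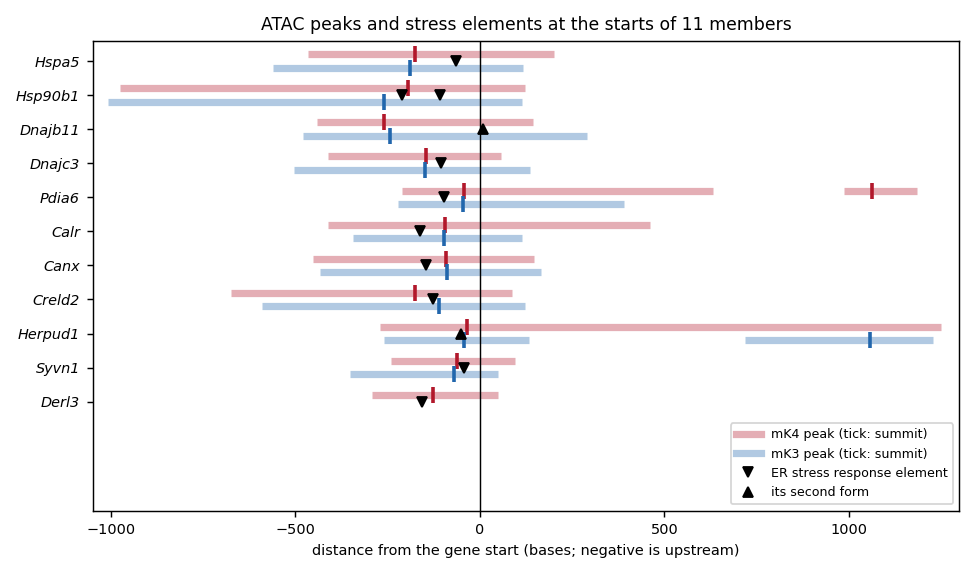
Deposited ATAC peaks (bars, with the summit as a tick) around the starts of the 11 members with either form of the ER stress response element, in bases from the start, mK4 in red above mK3 in blue. Triangles mark the first base of each element, which lies inside the peaks of both lines for every gene drawn except Derl3, which has a peak in mK4 only.

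Genes of ER-associated degradation, which pull misfolded proteins back into the cytosol, had 2 higher, 2 lower and 6 uncalled of 10. This is near the 40.3% of all tested genes that were called, beside 53.9% of protein-coding genes with at least 5 CPM. The derlins, membrane proteins that help move substrates out of the ER, differed from each other. Derl1 had 198, 193 and 202 CPM in the mK4 libraries and 433, 474 and 515 CPM in the mK3 libraries. The mK4 level was 0.416 times the mK3 level (log2 fold change -1.26, SE 0.08, adjusted p = 8.42e-05), and no libraries overlapped. Derl2 was 1.31-fold higher, with 21.5, 20.4 and 22.9 CPM in mK4 and 15.5, 18.1 and 16.1 CPM in mK3 (adjusted p = 0.0328, kept in 6 of 12 alternatives, 0.00461 to 0.0942). Derl3, the derlin typical of secretory cells, was near the floor, with 24, 12 and 21 counts in mK4 and 0, 3 and 7 counts in mK3. Its libraries did not overlap, but it was not called (adjusted p = 0.176).

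The EDEM proteins trim mannose from misfolded glycoproteins and so mark them for removal. Edem3 was lower, with 195, 176 and 163 CPM in mK4 and 227, 229 and 237 CPM in mK3 (log2 fold change -0.37, SE 0.08, adjusted p = 0.0112). Edem1, an XBP1 target in mouse fibroblasts, had 229, 251 and 217 CPM in mK4 and 193, 195 and 205 CPM in mK3, with no overlap, and its 1.17-fold higher level (adjusted p = 0.0483) was called in 4 of 12 alternatives (0.0114 to 0.121). Edem2 stood at 37.6 ± 2.67 CPM in mK4 and 30.0 ± 3.95 CPM in mK3 and was not called (adjusted p = 0.0777), although it passed with DESeq2 (adjusted p = 0.0492) and without mK3 replicate 1 (adjusted p = 0.0265). The ubiquitin ligase of this pathway was not called. Syvn1, which encodes the ligase HRD1, stood at 16.7 ± 1.66 CPM in mK4 and 14.9 ± 0.337 CPM in mK3 (adjusted p = 0.303), and Sel1l, its cofactor, at 111 ± 26.2 and 96.2 ± 17.2 CPM in mK4 and mK3 (adjusted p = 0.507). Herpud1, a short-lived membrane protein that recruits the ligase, had 11.6, 15.3 and 11.2 CPM in mK4 and 15.4, 17.9 and 22.8 CPM in mK3 (adjusted p = 0.0684, and 0.0238 with DESeq2). Selenos, a selenoprotein that anchors the extraction ATPase, stood at 15.5 ± 1.62 CPM in mK4 and 17.2 ± 3.59 CPM in mK3 (adjusted p = 0.568).

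Of all tested genes 40.3% were called, and of protein-coding genes with at least 5 CPM 53.9%. Among the 7 sensors, factors and their proteases, Atf6 alone was called. It had 456, 471 and 411 CPM in the mK4 libraries and 324, 305 and 382 CPM in the mK3 libraries, without overlap. Its level was 1.32-fold higher (log2 fold change 0.40, SE 0.10, adjusted p = 0.0223), and the call held in 7 of 12 alternatives (0.00461 to 0.0804). Atf6b, its weaker relative, stood at 7.88 ± 1.01 CPM in mK4 and 8.47 ± 0.327 CPM in mK3 (adjusted p = 0.635). The proteases that release ATF6 had mean values above those of mK3 without passing. Mbtps1, the site-1 protease, stood at 183 ± 13.2 CPM in mK4 and 156 ± 10.5 CPM in mK3 (adjusted p = 0.0732, and 0.0404 without library scaling). Mbtps2, the site-2 protease, had 23.5, 25.4 and 19.6 CPM in mK4 and 12.5, 19.1 and 10.9 CPM in mK3 (adjusted p = 0.0607), and passed in 5 of 12 alternatives (0.0102 to 0.155), DESeq2 among them.

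The IRE1 branch was marked by wide spread within mK3. Ern1, which encodes IRE1 alpha, had 109, 126 and 92.1 CPM in mK4 and 143, 65.6 and 123 CPM in mK3, so that mK3 replicate 2 lay below every other library. The log2 fold change was -0.02 (SE 0.29, adjusted p = 0.973). Xbp1 had 19.5, 16.2 and 15.6 CPM in mK4 and 13.7, 15.8 and 8.38 CPM in mK3, with mK3 replicate 3 the lowest (adjusted p = 0.22). Counts per gene do not separate the spliced from the unspliced Xbp1 message. Eif2ak3, which encodes PERK, stood at 59.8 ± 9.73 CPM in mK4 and 52.2 ± 3.01 CPM in mK3 (adjusted p = 0.297).

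Of the 3 translocation genes, 2 were lower, beside 19.5% of all tested genes and 27.8% of protein-coding genes with at least 5 CPM. Serp1, or RAMP4, a small protein at the Sec61 channel, had 47.4, 47.4 and 44.8 CPM in mK4 and 64.9, 70.8 and 69.3 CPM in mK3 (log2 fold change -0.55, SE 0.07, adjusted p = 0.00175). Ssr1, a subunit of the translocon-associated complex, had 94.5, 97.5 and 95.1 CPM in mK4 and 124, 119 and 116 CPM in mK3. Its libraries did not overlap (log2 fold change -0.32, SE 0.06, adjusted p = 0.00742), but the adjusted p was 0.08 without library scaling, a setting that moved the median log2 fold change of all genes to 0.13. Sec61b, a subunit of the channel itself, stood at 32.9 ± 1.84 CPM in mK4 and 35.6 ± 4.98 CPM in mK3 (adjusted p = 0.526).

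Targets assigned to each branch gave no common direction among the members. Of 6 members known as XBP1-dependent in mouse fibroblasts (Dnajb9, Dnajb11, Dnajc3, Edem1, Pdia6 and Serp1), 2 were higher and 3 lower, with a median log2 fold change of -0.22. Of 9 known as ATF6-dependent (Hspa5, Hsp90b1, Hyou1, Pdia4, Calr, Herpud1, Sel1l, Derl3 and Creld2), 2 were higher and 1 lower, with a median of 0.16. Both counts stand beside the 20.8% higher and 19.5% lower of all tested genes. Among protein-coding genes with at least 5 CPM, 26.1% were higher and 27.8% lower.

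Messages listed for the PERK arm, in contrast, were lower in mK4 almost throughout. Of all tested genes 19.5% were lower, and of protein-coding genes with at least 5 CPM 27.8%. The PERK list was chosen with earlier results of these data known, and message levels do not show the activity of PERK. Of 12 listed genes of the PERK arm and its factors ATF4 and CHOP, 11 were lower, and the exception, Ppp1r15a, stood at 1.66 ± 0.394 CPM in mK4 and 1.67 ± 0.268 CPM in mK3 (adjusted p = 0.985). The median log2 fold change was -1.14, and 10 or 11 of the genes were lower in each of the 12 alternatives, which were added for this list after its values were seen. Atf4, the factor whose translation PERK favours, had 22.0, 20.8 and 20.9 CPM in mK4 and 42.0, 47.9 and 52.7 CPM in mK3 (log2 fold change -1.16, SE 0.11, adjusted p = 0.000426). Ddit3, which encodes CHOP, had 12.3, 11 and 10.7 CPM in mK4 and 29.8, 22.7 and 21.4 CPM in mK3 (log2 fold change -1.12, SE 0.16, adjusted p = 0.00225). Libraries of the lines did not overlap for either. Asns, which makes asparagine, fell by 1.46 on the log2 scale (SE 0.10, adjusted p = 0.000124), and Chac1, which breaks down glutathione, fell by 2.22 (SE 0.18, adjusted p = 0.000244). ATF4 also answers to eIF2 kinases outside the ER, and of these Eif2ak1 was 2.06-fold higher (adjusted p = 0.000399) and Eif2ak2 was at 0.423 times its mK3 level (adjusted p = 0.000108). Eif2ak4, added here after its value was seen, stood at 28.8 ± 5.23 CPM in mK4 and 36.7 ± 3.02 CPM in mK3 and was not called (adjusted p = 0.126). The difference between this list and the 37 genes was not tested.

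The remaining steps of the secretory pathway, listed for comparison, were also mixed, with more lower than higher calls in several. Counts here and in the next paragraph stand beside the 20.8% higher and 19.5% lower of all tested genes. Of protein-coding genes with at least 5 CPM, 26.1% were higher and 27.8% lower. Among 14 other oxidative folding enzymes 6 were higher and 3 lower, with Ero1b, an oxidase that recharges the isomerases, 2.11-fold higher (adjusted p = 0.000641) and the isomerase Txndc5 at 0.588 times its mK3 level (adjusted p = 0.000244). The sulfhydryl oxidases Qsox2 and Qsox1 were on opposite sides, Qsox2 at 2.03-fold (adjusted p = 0.000785) and Qsox1 at 0.504-fold (adjusted p = 0.00062). Of 8 ER prolyl isomerases 5 were lower and the others were not called. Fkbp10, which serves collagen folding, had 0.0513, 0.0394 and 0 CPM in mK4 and 77.3, 59.9 and 72.3 CPM in mK3 (adjusted p = 4.74e-05), and Fkbp11 had 0, 0.0394 and 0 CPM in mK4 and 16.7, 21.2 and 22.0 CPM in mK3 (adjusted p = 0.000248). Of 12 oligosaccharyltransferase genes, which attach the sugar that the lectins read, 4 were higher, Magt1 3.05-fold (adjusted p = 5.62e-05), and 6 lower, Stt3a at 0.601 times its mK3 level (adjusted p = 0.000273). Tusc3, a relative of Magt1, was 1.40-fold higher (adjusted p = 0.00624), and the subunit gene Dad1 was at 0.49 times its mK3 level (adjusted p = 0.00108). Glycan trimming had 3 higher and 2 lower of 8, with Man1a2 2.39-fold higher (adjusted p = 5.15e-05) and its relative Man1a at 0.322 times its mK3 level (adjusted p = 9.27e-05). Uggt1, which adds glucose back to unfolded glycoproteins, was 1.17-fold higher (adjusted p = 0.0129), and Prkcsh, a subunit of glucosidase II, was at 0.796 times its mK3 level (adjusted p = 0.023).

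Other degradation genes had 3 higher and 6 lower of 21, with Erlin2 2.34-fold higher (adjusted p = 0.000433) and the extraction ATPase gene Vcp at 0.62 times its mK3 level (adjusted p = 0.000681). Erlin1, the partner of Erlin2, was 1.33-fold higher (adjusted p = 0.00281), and the ubiquitin ligase gene Marchf6 was at 0.692 times its mK3 level (adjusted p = 0.000486). Other translocon and signal peptide genes had 2 higher and 9 lower of 23, with Ssr2, a partner of Ssr1, 1.71-fold higher (adjusted p = 0.00205) and Sec63 at 0.639 times its mK3 level (adjusted p = 0.00164). Sec11a, of the signal peptidase, was 1.33-fold higher (adjusted p = 0.0467), and Srpr, of the signal recognition particle receptor, was at 0.711 times its mK3 level (adjusted p = 0.000877). Vesicle coat and retrieval genes had 3 higher and 9 lower of 18. The KDEL receptors, which return escaped lumenal chaperones to the ER, went in opposite directions. Kdelr2 had 2329.7, 2224 and 2247 CPM in mK4 and 1182, 1362 and 1413 CPM in mK3 (adjusted p = 0.000507), and Kdelr3 had 96.2, 100.1 and 93.3 CPM in mK4 and 217, 251 and 259 CPM in mK3 (adjusted p = 0.000101). The coat genes Sec24b and Sec24a also differed in direction, at 1.59-fold (adjusted p = 0.000939) and 0.511-fold (adjusted p = 0.000278). Calcium and redox genes had 4 higher and 6 lower of 19, with Itpr2 2.21-fold higher (adjusted p = 0.000672) and the calcium-binding Rcn3 at 0.115 times its mK3 level (adjusted p = 4.95e-05). The same list held the membrane J proteins Dnajb14, 3.07-fold higher (adjusted p = 0.00036), and Dnajb12, at 0.566 times its mK3 level (adjusted p = 0.00073). Other stress sensors and cofactors had 3 higher and 9 lower of 18. Nfya, a subunit of the factor that binds the CCAAT box, was 1.73-fold higher (adjusted p = 0.000383), and Yy1, a known cofactor of ATF6, was at 0.436 times its mK3 level (adjusted p = 0.000173).

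**Figure D4:**
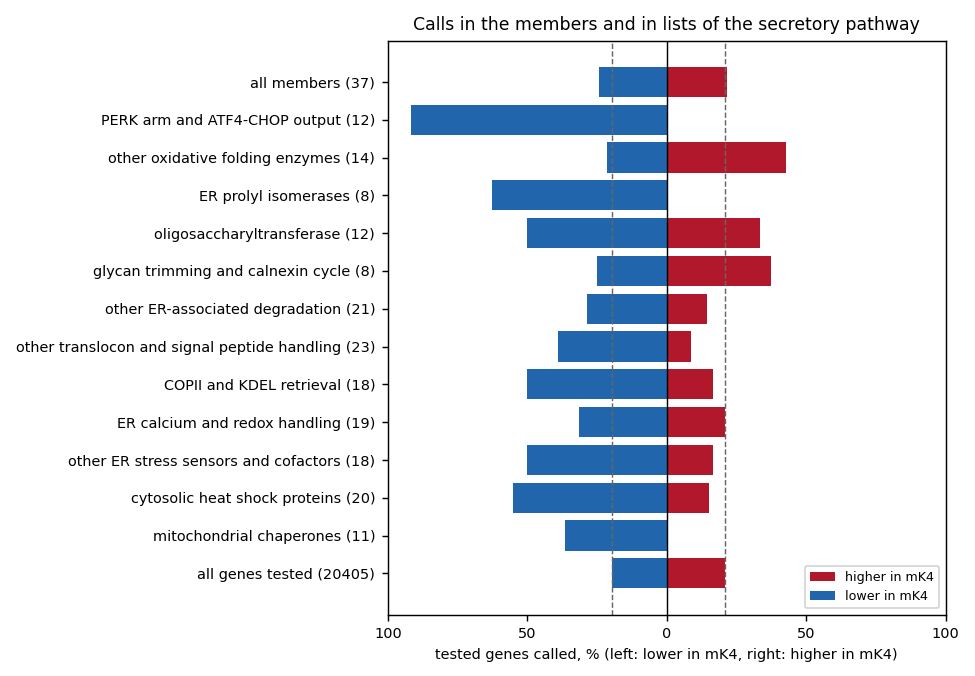
Percentage of tested genes called lower (left, blue) or higher (right, red) in mK4 for the 37 members, for each comparison list with its number of tested genes in brackets, and for all tested genes. Dashed lines mark the shares of all tested genes, 19.5% lower and 20.8% higher, to which the members lie close, while the PERK list reaches 11 of 12 on the left.

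Some called members lay among neighbours that moved the same way, and others did not. Counts of called neighbours stand beside the 20.8% higher and 19.5% lower of all tested genes. Derl1 is on chromosome 15 (57869502 to 57892418, GRCm38.p6), where the median log2 fold change over 681 tested genes was -0.50. Within 1 Mb of Derl1, the 15 tested neighbours had a median of -0.74 and 10 of them were lower. Around Pdia4 on chromosome 6 (47796141 to 47813512), the 24 tested neighbours had a median of 1.09 and 12 were higher, beside 0.14 for the chromosome. Around Hsp90b1 on chromosome 10 (86690841 to 86705444), the 12 neighbours had a median of -0.62 and 7 were lower. Pdia5 did not follow this pattern. The 17 tested genes near it on chromosome 16 (35397308 to 35490919) had a median of 0.48 against its own -1.74. Dnajb11, Edem3, Hspa5, Dnajc10, Sdf2l1 and Derl2 also had the opposite sign to the median of their neighbours. For Dnajb11 the values were -0.49 against 0.14, and for Dnajc10 0.31 against -0.14. All other called members, P4hb (-0.51 against -0.04) among them, had the same sign as that median. Serp1, which fell by 0.55, had 19 neighbours with a median of -0.16, of which 4 were lower and 3 higher, on a chromosome 3 whose 854 tested genes had a median of 0.69. Gene copy number was not measured, and its part in these differences was not tested.

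**Figure D5:**
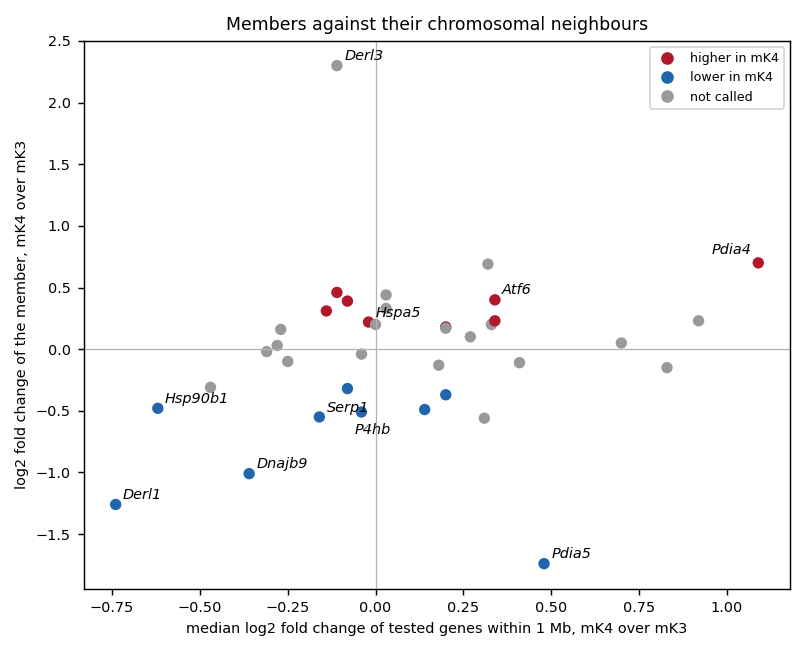
Log2 fold change of each member (y axis) against the median log2 fold change of tested genes within 1 Mb of it (x axis), mK4 over mK3, with red for higher, blue for lower and grey for not called. Derl1 (-0.74, -1.26) and Pdia4 (1.09, 0.70) lie at opposite ends with their neighbours, and Pdia5 (0.48, -1.74) lies apart from its own.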

How the data were processed

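The expression table holds read counts per feature that the authors deposited without normalization. The submitters' processing notes name mm10 as build and list deepTools, MACS3, SAMtools, Bowtie2, bedtools, HTSeq 2.0.2 and STAR 2.7.10a, without the file each made. Per the labels, libraries were strand-specific and depleted of ribosomal RNA. The deposited peak lists give a fold enrichment (a ratio over background), a -log10 p and -log10 q, a score and a summit offset per peak, all the authors' own values.

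Genes were fitted with edgeR 4.0.16 in R 4.3.3 (filterByExpr, TMM scaling, robust quasi-likelihood test of mK4 against mK3), with Benjamini-Hochberg adjustment over 20405 genes. SE is the log2 fold change divided by the root of the F statistic. The steps were tested on simulated data. No 2 replicates agreed within sampling noise. Alternatives were DESeq2 1.42.0, other scaling and filters, a replicate block and each library left out. Peaks were matched to RefSeq starts (GRCm38.p6, which is mm10) with pandas 2.3.3, at least 1 base within 1000 bases. Members and lists were chosen with earlier results of these data known. All members are named. From each list the text names up to 2 called genes per direction with the smallest adjusted p, plus Atf4 and Ddit3, and Ppp1r15a and Eif2ak4, chosen after their values were seen. The neighbourhood comparison was chosen after the data were seen. Micro and circular RNAs were not used here.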

Additional observations from a re-analysis of the deposited data

How the results depend on the processing

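Higher calls among the 37 genes moved more with the fit than lower calls. The 8 higher genes became 5 with DESeq2 size factors, 5 with no filter on low counts and 2 with the replicate block, and 1 to 5 with a library left out. In the other direction, they became 10 without scaling and 9 where every library had to reach 1 CPM. The lower count ran from 8 to 11 over the 12 alternatives, with Ssr1 lost without scaling, Creld2 and Herpud1 gained with DESeq2 and Calr gained without mK3 replicate 1, and the PERK list between 10 and 11. With DESeq2, 10 members were higher and 11 lower. Values near 0 changed sign: without scaling Pdia3 was at 0.06, Atf6b at 0.0 and Ern1 at 0.08, and Ern1 was at 0.0 when every library had to reach 1 CPM and at 0.04 with the replicate block. With a library left out, log2 fold changes ran over -0.12 to 0.04 for Pdia3, -0.02 to 0.13 for Pdia6, -0.04 to 0.10 for Manf, -0.28 to 0.21 for Ern1 and -0.30 to 0.0 for Selenos. These 6 genes were not called in the main test or the alternatives (adjusted p 0.136 to 0.998). The cause was not tested. The labels give replicate numbers 1 to 3 in both lines without saying what they mark. Deviations of same-numbered libraries correlated at -0.018, 0.022 and 0.007 over the tested genes. These values cannot show whether same-numbered libraries shared a culture or a day. Start peaks in mK4, mK3 and both lines numbered 31, 29 and 29 at a -log10 q of at least 10. With windows of 500 or 5000 bases they stayed at 33, 31 and 31. Depth was lowest for Derl3, at 0 to 24 counts a library, and Derl3 was left out where every library had to reach 1 CPM.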

Other observations

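Chaperones of the cytosol and of mitochondria were read as a comparison, beside the 20.8% higher and 19.5% lower of all tested genes and the 26.1% higher and 27.8% lower of protein-coding genes with at least 5 CPM. Of 20 cytosolic heat shock genes 11 were lower and 3 higher, with a median log2 fold change of -0.42 beside 0.02 over all tested genes. Hsph1, an exchange factor of the cytosolic Hsp70, had 13.1, 13.9 and 12.5 CPM in mK4 and 50.6, 44.0 and 43.4 CPM in mK3 (log2 fold change -1.80, SE 0.10, adjusted p = 7.03e-05), and its relative Hspa4 was at 0.52 times its mK3 level (adjusted p = 7.94e-05). Against that direction, the small heat shock gene Cryab was 3.97-fold higher (adjusted p = 0.000785) and the J protein gene Dnajb4 1.59-fold higher (adjusted p = 0.0101). Of 11 mitochondrial chaperones and proteases 4 were lower and the others were not called, with a median of -0.30, so the count of lower genes is not far from the background. Hspa9, the mitochondrial Hsp70, had 104, 106 and 98.7 CPM in mK4 and 293, 313 and 303 CPM in mK3 (log2 fold change -1.56, SE 0.06, adjusted p = 2.3e-05), with no overlap, and the protease gene Lonp1 was at 0.489 times its mK3 level (adjusted p = 0.00205).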
